A study of Mus musculus with 12 samples.

Results

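The genes described are 6 transcriptional regulators of the pancreatic acinar cell, Ptf1a, Rbpjl, Bhlha15, Nr5a2, Nr0b2 and Gata4. They were taken with every probe set that the platform annotation assigns to 1 of these symbols alone, which gave 12 of the 45037 probe sets of the array that are not controls, and 6 of 18193 genes. The series holds 12 Affymetrix arrays of mouse pancreas, 4 in each of 3 groups, labelled biological replica A to D. The paper's figure legend also describes each array as a separate biological sample. yDucts were organoids that arose from acini of adult R26-rtTA; tetO-YAP S127A mice after doxycycline had switched on the YAP S127A transgene, and that were then passaged without doxycycline. Ducts were organoids grown from native duct fragments picked by hand. Acini were exocrine acini freshly isolated from the pancreas. Both kinds of organoid grew in Matrigel under the same pancreatic organoid medium, while Acini were not cultured. R26-rtTA drives the transgene from a locus active in most cell types, so its induction was not limited to acinar cells by the genotype itself. The paper addressed the cell of origin in separate mice whose acinar cells were labelled through Ptf1a-CreERTM. There yDucts kept the acinar label, while organoids from native ducts never carried it. The paper also reported no expandable organoids from acinar cells of control R26-rtTA mice or from cells left without doxycycline. In native duct progenitors, it reported no effect of YAP overexpression on organoid formation. The strain, the sex and, outside yDucts, the genotype of the mice are not given in the labels or methods. Nor is it given whether the 4 biological replicas of a group came from different animals or from different cultures. The p-values therefore cover only the array-to-array spread within a group, some of it possibly technical.

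Acinar cells make and secrete the digestive enzymes of the pancreas. PTF1A, a basic helix-loop-helix (bHLH) protein, pairs with an E protein and with RBPJL, the acinar form of the Notch effector RBPJ, and this trimer, PTF1, binds the promoters of the enzyme genes. BHLHA15, also called MIST1, is a bHLH factor that sets up the secretory apparatus. NR5A2, also called LRH-1, is a nuclear receptor that works with PTF1 at acinar genes and is also known from liver, where it activates Nr0b2, the gene of the corepressor SHP. SHP has no DNA-binding domain and in turn represses NR5A2. GATA4 is a zinc finger factor required, together with its paralog GATA6, for pancreas formation.

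Values are log2 expression, 1 per probe set and array. A probe set whose group mean lay below the 30th percentile of the arrays of that group was treated as having only an upper limit there, and folds against it are given as "at least". That percentile averaged 3.20 for yDucts, 3.21 for Ducts and 3.72 for Acini. The arrays of the groups also differed in the control probe sets for RNA integrity: the 3′ minus 5′ difference of Gapdh was -0.17 to -0.12 in yDucts, -0.07 to 0.02 in Ducts and 1.29 to 1.91 in Acini. Within Ducts, arrays C and D differed from each other by 0.20 on average (mean absolute log2 difference over 33460 probe sets), while the other 5 pairs of Ducts arrays differed by 0.33 to 0.51. For yDucts the 6 pairs ranged from 0.15 to 0.26 and for Acini from 0.43 to 0.56. The part of these differences in the results was not tested, apart from fits without pairs of Ducts arrays, which are given where they change a call.

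All 12 probe sets were lower in yDucts than in Acini, and all 12 were lower in Ducts than in Acini, by limma with Benjamini-Hochberg adjustment over 33460 probe sets at an adjusted p under 0.05. Over all probe sets tested, 31.6% were called lower and 39.7% higher in yDucts against Acini, and 31.2% were called lower and 40% higher in Ducts against Acini. The median difference of the 12 probe sets was -2.31 (log2) in yDucts against Acini and -3.58 in Ducts against Acini, beside 0.13 and 0.15 over all probe sets tested. Between yDucts and Ducts, 4 of the 12 were called higher and 0 lower (0 lower also at an unadjusted p under 0.05), against a background of 1.57% higher and 0.756% lower. The 4 belonged to Nr5a2 and Nr0b2. The median in that comparison was 0.23 over the 12, and 0.31 over the 10 not below the percentile in both organoids, beside -0.02 over all probe sets. The 12 passed the filter on dim probe sets, 1 of them (Bhlha15 1418800_at) only through its values on the 4 Acini arrays and 1 (Gata4 1418864_at) through 3 Acini arrays and 1 Ducts array, so for these a lower value in the organoids was built into the selection. The comparisons share the Acini or Ducts arrays and are not independent of each other. In tissue RNA of this kind, fewer cells that express a gene and less of its RNA per cell cannot be told apart.

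**Figure D1:**
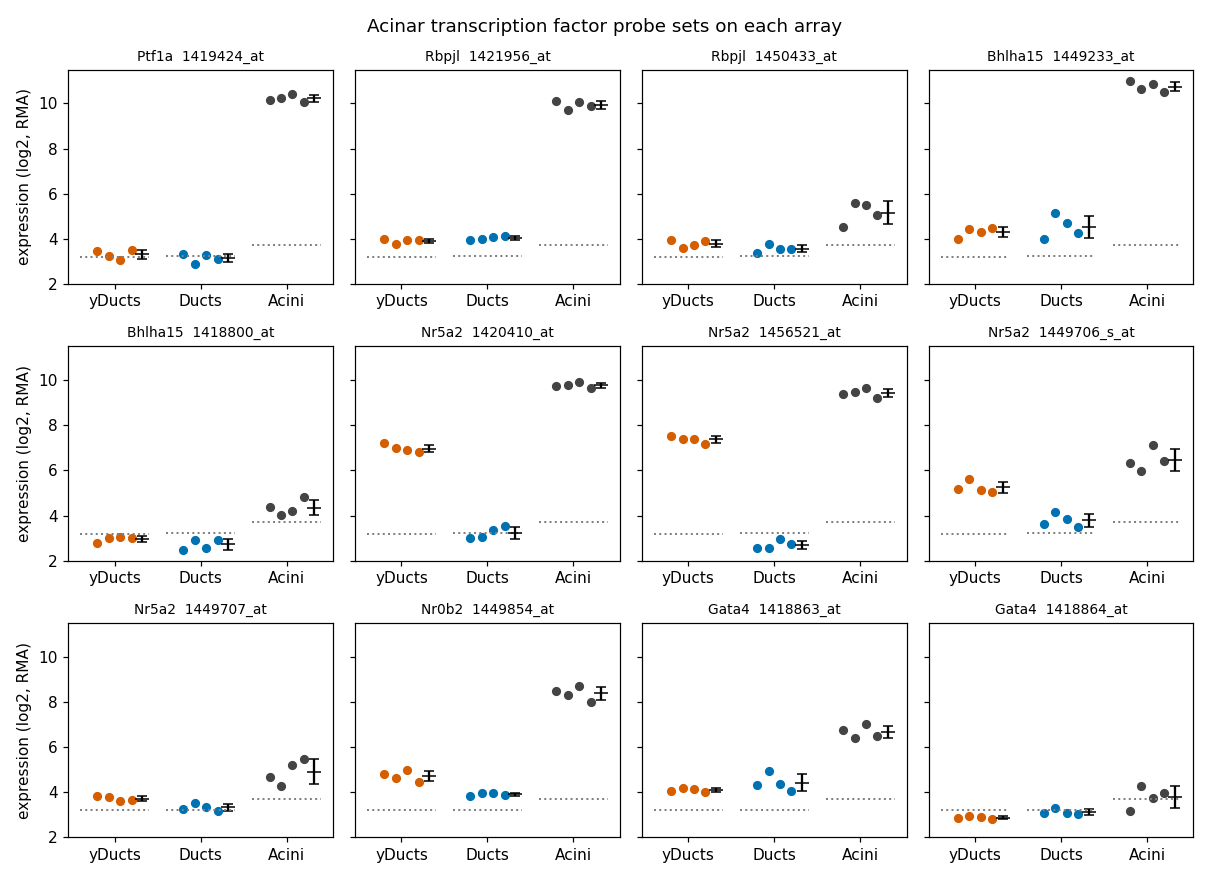
Log2 expression (RMA, y axis) of the 12 probe sets of the acinar factors on each array of yDucts, Ducts and Acini (points, arrays A to D from left to right), with the group mean and SD (bar, n = 4) and the 30th percentile of the group's arrays (dotted line). Nr5a2 1420410_at and 1456521_at lie between 6.80 and 7.54 in yDucts, apart from both Ducts and Acini, whereas Ptf1a and the brighter probe sets of Rbpjl, Bhlha15 and Gata4 lie near or within the Ducts values in yDucts.

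Ptf1a, the bHLH subunit of PTF1, was far lower in both kinds of organoid than in Acini. The gene (chromosome 2, positions 19445663 to 19447501, assembly GRCm38.p6; probe set 1419424_at) read 3.45, 3.25, 3.06 and 3.50 on arrays A to D of yDucts, 3.30, 2.88, 3.26 and 3.12 on those of Ducts, and 10.15, 10.25, 10.44 and 10.08 on those of Acini. The yDucts and Ducts values overlapped and lay about the 30th percentile of their arrays, with 3 of 4 yDucts and 2 of 4 Ducts values above it, while every Acini value was above 10. yDucts averaged 3.32 ± 0.20 and Acini 10.23 ± 0.16 (SD, n = 4 each), a difference of -6.92 ± 0.16 (SE), which is 121-fold lower in yDucts (limma, adjusted p = 4.98e-13). In Ducts the gene was at least 127-fold lower than in Acini (difference -7.09, adjusted p = 3.68e-13). Between yDucts and Ducts the difference was 0.18 with a 95% interval from -0.16 to 0.51 (adjusted p = 0.781).

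Rbpjl (chromosome 2, 164403081 to 164415448), the subunit that gives PTF1 its full activity in acinar cells, has 2 probe sets. The brighter, 1421956_at, read 3.98, 3.76, 3.95 and 3.94 in yDucts, 3.96, 3.98, 4.08 and 4.13 in Ducts, and 10.10, 9.71, 10.06 and 9.87 in Acini. The organoid groups overlapped, and both lay above the percentile on every array. The level was 65.2-fold lower in yDucts than in Acini (difference -6.03 ± 0.14, adjusted p = 4.98e-13) and 59.6-fold lower in Ducts than in Acini (-5.90 ± 0.14, adjusted p = 6.28e-13). yDucts differed from Ducts by -0.13, with an interval from -0.43 to 0.17 (adjusted p = 0.84). The dimmer probe set, 1450433_at, showed 3.57 to 3.92 in yDucts, 3.38 to 3.76 in Ducts and 4.51 to 5.58 in Acini, and gave smaller differences of -1.39 in yDucts and -1.61 in Ducts against Acini (adjusted p = 7.29e-05 and 2.03e-05).

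Bhlha15, which encodes MIST1 (chromosome 5, 144190286 to 144194441), read 3.98, 4.41, 4.31 and 4.48 in yDucts, 3.99, 5.12, 4.71 and 4.23 in Ducts, and 10.98, 10.64, 10.87 and 10.52 in Acini by 1449233_at. The Ducts arrays spread over more than 1 log2 unit, and 3 of the 4 yDucts values lay within their range. The gene was 87.9-fold lower in yDucts (-6.46 ± 0.23, adjusted p = 8.51e-11) and 75.6-fold lower in Ducts (-6.24 ± 0.23, adjusted p = 1.21e-10) than in Acini. The difference of yDucts from Ducts was -0.22 (95% interval -0.71 to 0.28, adjusted p = 0.841). By 1418800_at, all 8 organoid values, from 2.47 to 3.05, were below the percentile of their array, against 4.01 to 4.80 in Acini. That probe set was at least 2.22-fold lower in yDucts and at least 2.20-fold lower in Ducts.

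Nr5a2 (chromosome 1, minus strand, 136842562 to 136960448) stood between its Ducts and Acini levels in yDucts. By 1420410_at, the probe set with the highest mean, it read 7.20, 6.99, 6.89 and 6.80 in yDucts, 2.99, 3.06, 3.34 and 3.53 in Ducts, and 9.74, 9.79, 9.92 and 9.66 in Acini. By 1456521_at it read 7.54, 7.41, 7.40 and 7.18 in yDucts, 2.56, 2.58, 2.94 and 2.75 in Ducts, and 9.38, 9.47, 9.65 and 9.22 in Acini. The 3 groups did not overlap by either probe set, and the gap between the lowest yDucts and the highest Ducts value exceeded 3 log2 units in both. In Ducts, 1456521_at was below the percentile on all 4 arrays and 1420410_at on 2 of 4.

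Against Ducts, Nr5a2 was higher in yDucts by 3.74 ± 0.16 by 1420410_at, 13.4-fold (limma, adjusted p = 1.68e-08), and by 4.68 ± 0.15 by 1456521_at, at least 18-fold (adjusted p = 1.45e-09). Against Acini, Nr5a2 was lower in yDucts, 7.0-fold by 1420410_at (-2.81 ± 0.16, adjusted p = 8.7e-09) and 4.13-fold by 1456521_at (-2.05 ± 0.15, adjusted p = 9.56e-08). Ducts were 93.5-fold and at least 74.6-fold below Acini by these probe sets. On the linear scale, the Nr5a2 level in yDucts was 14.3% of that in Acini by 1420410_at and 24.2% by 1456521_at, and that in Ducts was 1.07% by 1420410_at and at most 1.34% by 1456521_at. The distance from Acini depended on the scaling: with a further quantile normalization over the 12 arrays the yDucts differences were -3.60 and -2.88 and with cyclic loess -3.65 and -2.84, in each case more than 1.5 times larger as a fold, with the adjusted p still under 0.05.

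The other 2 Nr5a2 probe sets gave smaller differences of the same sign. 1449706_s_at read 5.18, 5.60, 5.14 and 5.06 in yDucts, 3.64, 4.14, 3.84 and 3.50 in Ducts, and 6.33, 5.96, 7.13 and 6.40 in Acini, again without overlap. It was 2.76-fold higher in yDucts than in Ducts (1.47 ± 0.24, adjusted p = 0.00491), a call that was lost without Ducts arrays C and D (1.36, adjusted p = 0.0545), and 2.31-fold lower in yDucts than in Acini (-1.21 ± 0.24, adjusted p = 0.000477). 1449707_at read 3.83, 3.79, 3.61 and 3.67 in yDucts, 3.28, 3.51, 3.35 and 3.18 in Ducts, and 4.66, 4.27, 5.23 and 5.48 in Acini. Its yDucts and Ducts values did not overlap, but the difference of 0.40 (95% interval -0.09 to 0.88) did not pass the test (adjusted p = 0.524). All 4 probe sets placed the groups in the order Acini, yDucts, Ducts from high to low, and for this last probe set the neighbours yDucts and Ducts did not differ beyond the test.

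RefSeq lists a pair of transcription start sites for Nr5a2. The 250 bases before each are shown because 3 of the 4 Nr5a2 probe sets separated yDucts from Ducts as well as from Acini, and because E-boxes, the CANNTG motif that bHLH factors such as PTF1A and MIST1 bind, occur in both. The first window, chr1:136960449-136960698, lies outside the gene before its 5′ end, and the second, chr1:136953631-136953880, lies inside it. Both are on the minus strand of GRCm38.p6, 5′ to 3′, with matches to CANNTG (the same letters on both strands) in capitals.
Nr5a2 first window: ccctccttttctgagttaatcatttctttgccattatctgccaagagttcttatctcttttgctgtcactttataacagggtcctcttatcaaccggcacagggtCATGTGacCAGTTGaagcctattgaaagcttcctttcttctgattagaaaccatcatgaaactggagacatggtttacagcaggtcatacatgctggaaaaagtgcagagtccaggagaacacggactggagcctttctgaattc
Nr5a2 second window: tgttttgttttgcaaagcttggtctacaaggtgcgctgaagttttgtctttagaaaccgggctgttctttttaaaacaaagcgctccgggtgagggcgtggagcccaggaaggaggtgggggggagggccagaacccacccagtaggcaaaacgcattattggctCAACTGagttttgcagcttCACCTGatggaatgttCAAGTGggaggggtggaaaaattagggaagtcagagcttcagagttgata
The first window holds 2 matches, which begin 145 and 137 bases before the start, and the second holds 3, at 85, 66 and 50 bases. Of 32851 promoter windows of this length, 66.2% hold at least 1 CANNTG, so a match by itself is common. Neither window holds TTTCCC, the RBPJ-type motif of PTF1 sites, on either strand, and 21.9% of all windows do.

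Nr0b2 (chromosome 4, 133553376 to 133556686), the SHP corepressor gene, had 1 probe set, 1449854_at, and had the same order of groups as Nr5a2. It read 4.82, 4.63, 4.97 and 4.45 in yDucts, 3.82, 3.97, 3.97 and 3.87 in Ducts, and 8.50, 8.34, 8.72 and 8.0 in Acini, without overlap between any groups and above the percentile on all 12 arrays. yDucts averaged 4.72 ± 0.23 and Ducts 3.91 ± 0.08 (SD, n = 4 each), a difference of 0.81 ± 0.17, or 1.75-fold higher in yDucts (limma, adjusted p = 0.0262). This call was lost in 6 of 25 alternative settings. These were the fits without Ducts array C (adjusted p = 0.0725), Ducts array D (0.0812), yDucts array A (0.106), B (0.0533) or C (0.109), and without both Ducts C and D (0.152), while the difference stayed between 0.72 and 0.90 in all 25. Against Acini, Nr0b2 was 12.8-fold lower in yDucts (-3.67 ± 0.17, adjusted p = 1.66e-09) and 22.4-fold lower in Ducts (-4.48 ± 0.17, adjusted p = 2.15e-10). Its level was 7.84% of the Acini level in yDucts and 4.47% in Ducts.

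The 250 bases before the Nr0b2 start are shown because this gene is a known NR5A2 target and the only other factor called higher in yDucts than in Ducts. The window is chr4:133553126-133553375 on the plus strand of GRCm38.p6, 5′ to 3′, with matches to TCAAGG, the core of the NR5A motif (searched on both strands), in capitals.
Nr0b2: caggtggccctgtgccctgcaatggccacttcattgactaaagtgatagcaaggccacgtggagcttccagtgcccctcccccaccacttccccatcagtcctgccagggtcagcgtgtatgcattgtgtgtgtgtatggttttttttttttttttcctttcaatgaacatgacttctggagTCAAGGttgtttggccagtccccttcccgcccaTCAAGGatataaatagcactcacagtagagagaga
The 2 matches begin 68 and 35 bases before the start. At least 1 match occurs in 12.5% of the 32851 windows and at least 2 occur in 0.922%. The share for at least 2 was taken for this motif alone, beside a gene picked as a known NR5A2 target. It is therefore a description and no test, and whether NR5A2 acts on Nr0b2 in these cells was not tested. Among the other factors, the Rbpjl window holds 1 match on the opposite strand, at 37 bases, and the windows of Ptf1a, Bhlha15 and Nr5a2 hold none. Sequence windows were found for 5 of the 6 genes, Gata4 being the exception. A match describes letters in a window and does not show binding, and these arrays carry no measurement of binding.

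Gata4 (chromosome 14, 63198914 to 63271712) read 4.06, 4.21, 4.13 and 4.02 in yDucts, 4.33, 4.96, 4.38 and 4.07 in Ducts, and 6.78, 6.43, 7.03 and 6.49 in Acini by 1418863_at. The organoid groups overlapped by the lowest Ducts array, and both lay at least 1 log2 unit below every Acini array. It was 5.97-fold lower in yDucts (-2.58 ± 0.20, adjusted p = 1.28e-07) and 4.75-fold lower in Ducts (-2.25 ± 0.20, adjusted p = 4.38e-07) than in Acini. Its difference between yDucts and Ducts was -0.33 (95% interval -0.75 to 0.09, adjusted p = 0.555). The dimmer probe set, 1418864_at, read 2.80 to 2.96 in yDucts, 3.02 to 3.32 in Ducts and 3.16 to 4.29 in Acini. Its calls, at least 1.51-fold lower in yDucts and at least 1.46-fold lower in Ducts than in Acini (adjusted p = 0.0014 and 0.011), did not hold with a further quantile normalization (0.112 and 0.475) or cyclic loess (0.193 and 0.686). The call in Ducts was also lost with median centring (0.0676) and without Ducts C and D (0.0756).

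**Figure D2:**
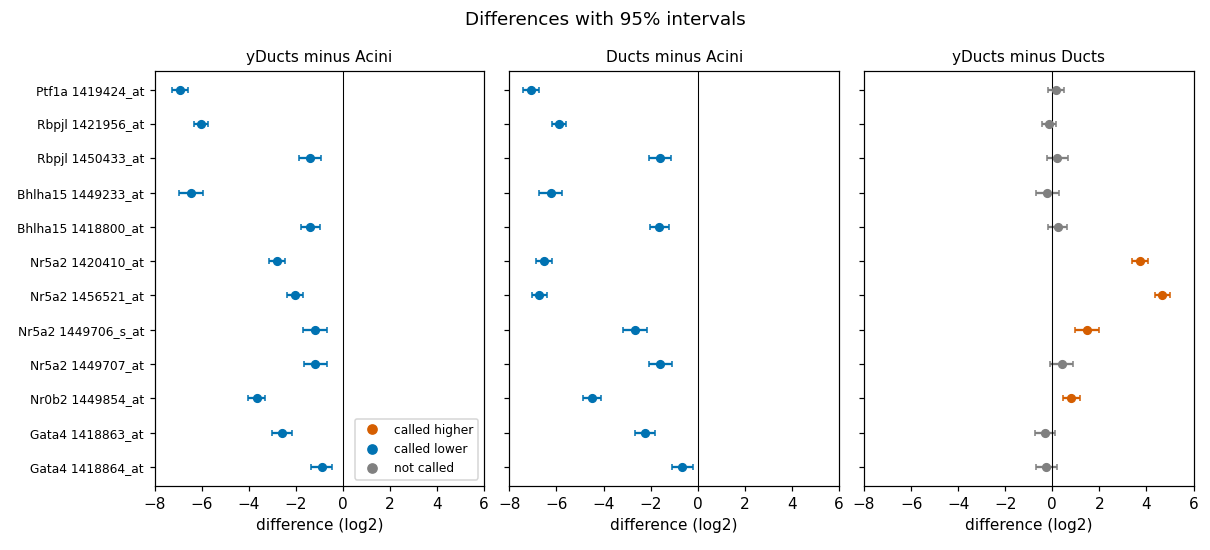
Differences (log2, x axis) of the 12 probe sets of the acinar factors with 95% intervals from limma, for yDucts minus Acini, Ducts minus Acini and yDucts minus Ducts. Every probe set is called lower against Acini in both panels, and in yDucts minus Ducts the called probe sets are 3 of Nr5a2 and the 1 of Nr0b2, from 0.81 to 4.68.

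Set side by side, Ptf1a, Rbpjl, Bhlha15 and Gata4 had yDucts levels of 0.829%, 1.53%, 1.14% and 16.8% of their Acini levels by the brightest probe set, and Ducts levels of at most 0.786%, 1.68%, 1.32% and 21.1%. For each of these 4 genes the order of yDucts and Ducts was not settled by the test, and of their 95% intervals that of Gata4 reached furthest from 0, to -0.75. This does not show that the levels were the same. Nr5a2 at 14.3% in yDucts and 1.07% in Ducts, and Nr0b2 at 7.84% in yDucts and 4.47% in Ducts, were the genes whose neighbours yDucts and Ducts were separated. Different probe sets respond differently to the same amount of RNA, so these shares are not ranked between genes.

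**Figure D3:**
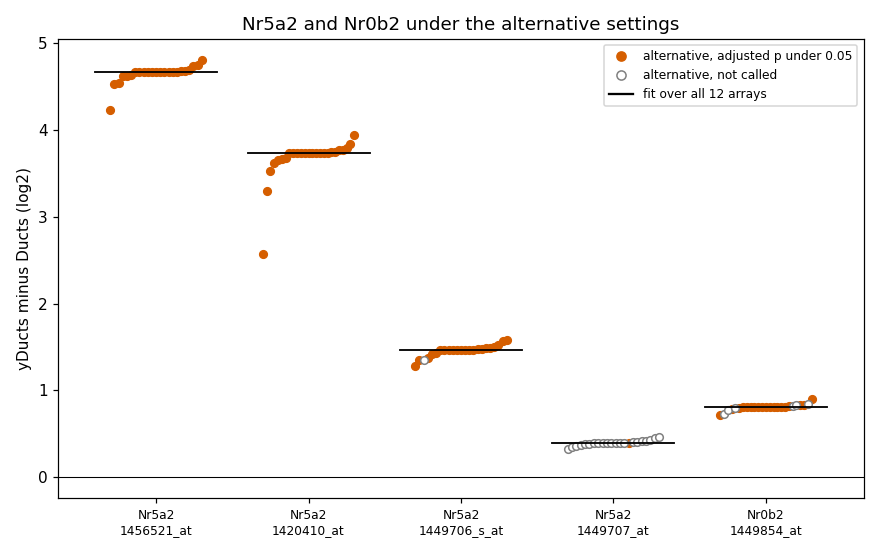
Difference of yDucts minus Ducts (log2, y axis) for the 4 Nr5a2 probe sets and Nr0b2 in the fit over all 12 arrays (line) and under each alternative setting (points, filled where the adjusted p was under 0.05). Nr5a2 1456521_at stays between 4.24 and 4.81 and 1420410_at between 2.57 and 3.95, the lowest being the mean over all 4 probe sets, and Nr0b2 stays between 0.72 and 0.90 with 6 open points.

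Most genes of the proteins that pair with PTF1A were higher in the organoids than in Acini. Of 4 PTF1 partner genes, 3 were higher in yDucts than in Acini and 1 was not called, and in Ducts 3 were higher and 1 lower. The counts of this and the following lists stand beside the shares over all probe sets tested. These were 39.7% higher and 31.6% lower in yDucts against Acini, and 1.57% higher and 0.756% lower in yDucts against Ducts. At such low shares against Ducts, 0 called in a short list says little. Rbpj, the broadly expressed paralog of Rbpjl, averaged 8.79 ± 0.08 in yDucts, 9.14 ± 0.44 in Ducts and 6.03 ± 0.37 in Acini (SD, n = 4 each), 6.75-fold higher in yDucts than in Acini (adjusted p = 2.58e-07). Rbpj and Rbpjl therefore differed from Acini in opposite directions, each by its own probe set. The E protein genes Tcf3 and Tcf12 were 4.61-fold and 3.39-fold higher in yDucts than in Acini. Tcf4, a further E protein gene, was 0.35 higher than in Acini (adjusted p = 0.0899) and was called 1.73-fold higher in yDucts than in Ducts (7.94 ± 0.10 in yDucts against 7.16 ± 0.32 in Ducts, adjusted p = 0.0349), a call that a further quantile normalization took to 0.051. Its difference from Acini turned to -0.56 and -0.67 with quantile normalization and cyclic loess.

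ID proteins bind E proteins and keep bHLH factors such as PTF1A from DNA. Of 4 ID genes, 3 were higher and 1 lower in yDucts against Acini, and 0 of 4 were called between yDucts and Ducts (limma, also 0 at an unadjusted p under 0.05). Id1 averaged 11.65 ± 0.38 in yDucts and 5.95 ± 0.58 in Acini, 51.9-fold higher in yDucts (adjusted p = 1.74e-08). Id2 was 25.6-fold higher (adjusted p = 1.02e-06) and Id3 9.87-fold higher (adjusted p = 0.00208) in yDucts than in Acini, with Id3 spread from 6.17 to 9.01 over the yDucts arrays. Id4 was 1.83-fold lower (adjusted p = 0.00816), and lost its call with quantile normalization and cyclic loess.

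Of 12 genes around NR5A2 in the nuclear receptor network, 8 were tested, 2 were too dim and 2 had no probe set of their own. In yDucts against Acini 3 were higher, 3 lower and 2 not called, and between yDucts and Ducts 0 of 8 were called (limma, adjusted p from 0.392 to 0.96, 0 at an unadjusted p under 0.05). The counts against Acini lie near the shares over all probe sets (39.7% higher, 31.6% lower) and do not set this list apart. Nr5a1, the closest paralog of Nr5a2, averaged 4.47 ± 0.11 in yDucts, 4.39 ± 0.23 in Ducts and 5.64 ± 0.19 in Acini, 2.26-fold lower in yDucts than in Acini. Rxra, the shared partner of many nuclear receptors, was 2.56-fold lower in yDucts than in Acini (adjusted p = 1.17e-05). The coactivator genes Ncoa2 and Ncoa3 were 5.92-fold and 2.61-fold higher and Hnf4a, which acts beside NR5A2 in liver, 2.52-fold higher. Prox1, a known corepressor of NR5A2, was 1.84-fold lower (adjusted p = 0.017). The Hnf4a and Ncoa3 calls did not hold with cyclic loess, and the Prox1 call did not hold with any of 3 further scalings (quantile, loess or median centring).

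Gata6, the paralog of Gata4, moved the other way from it. It averaged 8.66 ± 0.09 in yDucts, 8.72 ± 0.19 in Ducts and 6.62 ± 0.72 in Acini, 4.13-fold higher in yDucts than in Acini (adjusted p = 2.28e-05), and yDucts differed from Ducts by -0.05 (adjusted p = 0.993). Of the FOG cofactors that bind GATA proteins, Zfpm2 was at least 16.5-fold higher in yDucts than in Acini (adjusted p = 1.3e-07). Zfpm1 averaged 5.17 ± 0.29 in yDucts, 6.62 ± 0.19 in Ducts and 7.45 ± 0.50 in Acini, and was lower in yDucts than in Ducts as well (2.73-fold, adjusted p = 0.00494). Gata5 was 0.29 lower in yDucts than in Acini (adjusted p = 0.125).

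Of 10 other regulators known in acinar cells, 8 were tested, of which 3 were higher, 2 lower and 3 not called in yDucts against Acini. Over all probe sets 39.7% were higher and 31.6% lower, so these counts, on the values as deposited, do not set the list apart. Klf15 was 17.8-fold lower (4.40 ± 0.45 in yDucts against 8.56 ± 0.34 in Acini, adjusted p = 5.93e-05) and the forkhead gene Foxa3 8.95-fold lower (5.38 ± 0.49 in yDucts against 8.55 ± 0.23 in Acini, adjusted p = 2.81e-07). Foxa3 was the 1 gene of this list called between the organoids, 2.84-fold lower in yDucts than in Ducts (adjusted p = 0.00839). Foxa2 was 4.08-fold and Ybx1 3.55-fold higher in yDucts than in Acini. Creb3l2 was 2.58-fold higher, without a call under quantile normalization or cyclic loess, and Onecut1 was 0.44 lower (adjusted p = 0.168), called lower under both. Most factors of duct and progenitor cells ran opposite to the 6 acinar factors: of 8 tested, 6 were higher and 0 lower in yDucts against Acini. These were Onecut2 (47.7-fold), Sox4 (16.7-fold), Klf5 (13.7-fold), Foxq1 (12.7-fold), the Notch target Hes1 (5.37-fold) and Pdx1 (2.39-fold, without a call under cyclic loess). The 2 not called in yDucts against Acini were Sox9 (0.18, adjusted p = 0.663) and Nkx6-1 (0.40, adjusted p = 0.205). For Sox9 only the brightest of 3 probe sets was used, at 6.86 in yDucts and 6.68 in Acini. The paper reported a gain of Sox9 in yDucts by qRT-PCR and immunofluorescence, and no Sox9 in the starting cells by single-cell profiling. Nkx6-1 was called higher with quantile normalization and cyclic loess. Between yDucts and Ducts 0 of 8 were called by limma (1 at an unadjusted p under 0.05).

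Most genes known to be activated by these factors were lower in the organoids too. Of 5 MIST1 target genes, 4 were lower and 1 was not called in yDucts against Acini, and all 5 were lower in Ducts. Rab26 and Rab3d, small GTPases of secretory granules, were 14.3-fold and 9.32-fold lower in yDucts than in Acini, and Atp2c2, a calcium pump of the secretory pathway, 21.6-fold lower. Copz2, a vesicle coat subunit, averaged 5.99 ± 0.04 in yDucts, 4.60 ± 0.64 in Ducts and 9.86 ± 0.24 in Acini, and was 2.61-fold higher in yDucts than in Ducts (adjusted p = 0.012). Gjb1, the gap junction gene of acinar cells, averaged 8.04 ± 0.28 in yDucts, 6.25 ± 1.24 in Ducts and 8.53 ± 0.21 in Acini, and its difference between yDucts and Ducts of 1.79 did not pass the test (adjusted p = 0.0588). Gjb1 was the gene not called in yDucts against Acini (-0.49, adjusted p = 0.338), and was called lower there with quantile normalization (-1.37, adjusted p = 0.0124) and cyclic loess (-1.52, adjusted p = 0.0128).

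Of 23 enzyme and granule genes listed as typical targets of PTF1 and NR5A2, 21 were tested and all 21 were lower in yDucts and in Ducts than in Acini, with medians of -10.16 in yDucts and -10.18 in Ducts when values under the percentile were taken at their bound. Of the 21, 7 were above the percentile on fewer than 4 of the 8 organoid arrays, 3 of them on none, and so passed the filter through the Acini arrays, which built a lower organoid value into the selection. Of the calls, that of Dmbt1 in yDucts did not hold with median centring (adjusted p = 0.0571). Cpb1, Cela2a, Rnase1 and Pnliprp1 were each at least 2200-fold lower in yDucts than in Acini, with yDucts means below the 30th percentile. Cpa1 averaged 3.31 ± 0.09 in yDucts, 3.28 ± 0.16 in Ducts and 14.59 ± 0.02 in Acini, at least 2500-fold lower in yDucts, and Cel was at least 2060-fold lower. These folds are given as lower bounds, since Acini values of 10 of the 21 genes lay within 0.5 log2 units of the highest value of the array (14.73 to 14.79) on all 4 Acini arrays, and whether the signal was saturated there was not tested. Between yDucts and Ducts, where Nr5a2 was called higher, 1 of these 21 genes was called higher and 20 were not called (2 higher at an unadjusted p under 0.05). In that comparison 6 of the 21 were below the percentile in both organoids, and the median difference of the other 15 was 0.05. Dmbt1, a mucin-like secreted protein gene, averaged 11.42 ± 0.29 in yDucts and 8.39 ± 3.24 in Ducts, a difference of 3.04 that did not pass the test (adjusted p = 0.224). Its Ducts arrays ran from 5.36 to 12.71, the highest of them above every yDucts array (11.03 to 11.74). The 1 called was Amy1, named after its values were seen, as was Dmbt1, at 3.35 ± 0.21 in yDucts and 2.47 ± 0.19 in Ducts (adjusted p = 0.00651). Its Ducts values were below the percentile, so the fold was at least 1.10, and amylase genes are near-identical copies that 1 probe set may not tell apart.

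**Figure D4:**
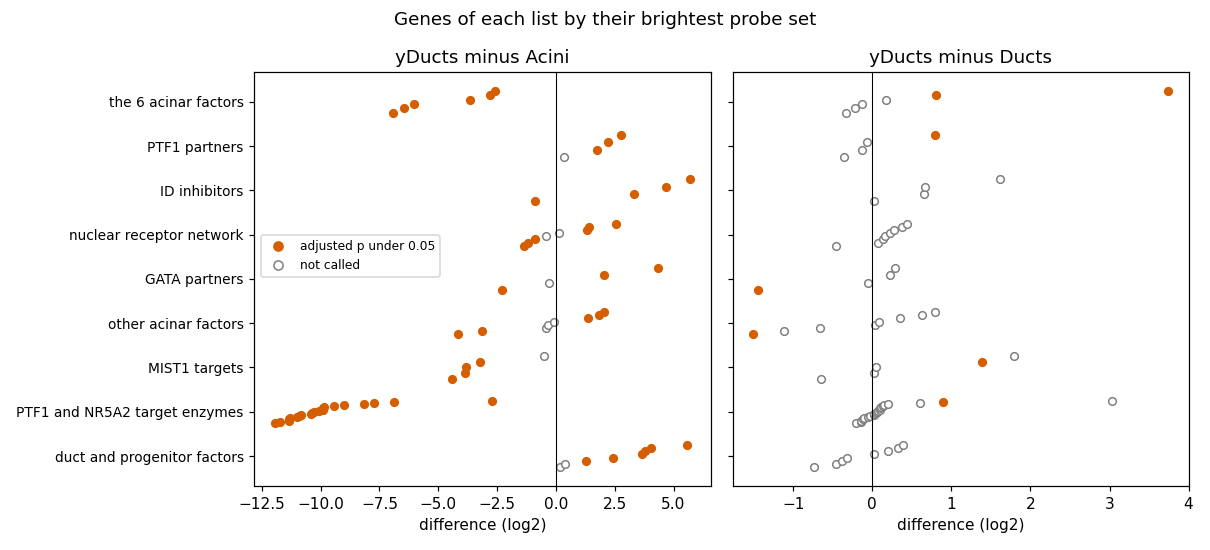
Difference (log2, x axis) of each tested gene by its brightest probe set in yDucts minus Acini and yDucts minus Ducts, grouped by list (y axis), filled where the adjusted p was under 0.05. The 21 enzyme and granule genes and the 6 acinar factors lie below 0 against Acini, and against Ducts the acinar factor at 3.74 is Nr5a2. The enzyme and granule gene at 3.04, not called, is Dmbt1, whose Ducts arrays ran from 5.36 to 12.71. Genes below the percentile are drawn at their fitted difference.

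Most markers of the labelled cell types followed the labels. By limma, 4 of 6 tested duct markers were higher in yDucts and in Ducts than in Acini, namely Krt19, Krt7, Tspan8 and Epcam, with Krt19 averaging 12.30 in yDucts, 12.38 in Ducts and 7.63 in Acini, while Cftr and Sox9 were not called. All 7 tested acinar markers were lower in both organoids than in Acini, and 0 of 7 were called between yDucts and Ducts (0 also at an unadjusted p under 0.05), 2 of the 7 being below the percentile in both. These 7 genes are also among the 21 enzyme and granule genes above, by the same probe sets, so this is not a separate result.

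Most tested markers of other cell types also separated yDucts from Acini, the majority by lower values in yDucts but not all. All 6 tested endocrine, 7 of 8 stromal, 6 of 6 endothelial and 7 of 8 immune markers were lower in yDucts than in Acini. The call of the stromal marker Pdgfrb was lost under each of the 3 further scalings. The remaining stromal marker, Vim, went the other way, 3.32-fold higher in yDucts than in Acini (limma, adjusted p = 0.000331). Its call was lost with cyclic loess (0.70, adjusted p = 0.0714). The remaining immune marker, Cd52, was not called (adjusted p = 0.0527). In Acini none of the tested markers of these lists had a mean below the percentile. In yDucts 3 of the endocrine, 3 of the stromal, 4 of the endothelial and 3 of the immune markers were below it. The same numbers were above it on fewer than 4 of the 8 organoid arrays and passed the filter through the Acini arrays, so their lower values were built into the selection. The log2 of the summed linear values of the endocrine markers ran from 6.22 to 6.37 in yDucts, 6.18 to 6.33 in Ducts and 11.88 to 12.53 in Acini, and that of the endothelial markers from 5.98 to 6.28 over the 8 organoid arrays and from 9.60 to 10.27 in Acini. For the immune markers the sums were 7.41 to 7.74 in yDucts, 7.58 to 8.19 in Ducts and 9.78 to 10.21 in Acini. Of 4 mesothelial markers 2 were too dim, and the 2 tested ran in opposite directions. Msln was 108-fold higher in yDucts than in Acini (limma, adjusted p = 1.51e-07) and Upk3b 4.71-fold lower (adjusted p = 1.83e-05). The part of these cells in the differences of the 6 factors was not tested.

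Between yDucts and Ducts, 0 of 6 endocrine, 0 of 6 endothelial and 0 of 8 immune markers were called by limma (0, 0 and 1 at an unadjusted p under 0.05). Of 8 stromal markers 1 was called, Vim, the intermediate filament gene of mesenchymal cells, at 10.50 in yDucts and 3.62 in Ducts (adjusted p = 4.53e-08). With it the summed stromal level ran from 9.65 to 11.01 in yDucts and 6.34 to 6.60 in Ducts. The 7 others, Dcn, Col1a1, Col1a2, Col3a1, Lum, Pdgfra and Pdgfrb, differed by -0.19 to 0.10, and Col3a1, Lum and Pdgfra were below the percentile in both organoids. Vim ran from high to low in the order yDucts, Acini, Ducts (8.77 in Acini), while Nr5a2 and Nr0b2 ran in the order Acini, yDucts, Ducts. The part of Vim-expressing cells in the higher Nr5a2 and Nr0b2 of yDucts was not tested.

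The pattern of Nr5a2 over the 12 arrays was shared by few probe sets. Pearson correlation was taken as the measure of likeness, with no test, since the 12 arrays fall into 3 groups and any genes that separate Acini from organoids correlate. Nr5a2 was closest to Ptger3, a prostaglandin E receptor gene (r = 0.991, n = 12 arrays), which averaged 7.88 in yDucts, 2.57 in Ducts and 10.58 in Acini, then to Tacc1 (0.977) and Cpn1 (0.975). Only 1 probe set of another gene passed r of 0.99 with Nr5a2, against 242 for Ptf1a, 250 for Rbpjl, 178 for Bhlha15, 8 for Nr0b2 and 5 for Gata4. By root mean square distance of centred values, the nearest to Nr5a2 were Ptger3 (0.77 log2 units), Gamt (0.93) and Fstl1 (1.06).

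For Ptf1a the highest correlations were with Prss2 (0.999), Cela2a (0.999) and Slc38a5 (0.999), the first pair being digestive enzyme genes. Its nearest by distance were Iapp (0.19), Col3a1 (0.25) and Vtn (0.26), an islet hormone, a collagen and a plasma protein gene, so a gene may share the pattern of Ptf1a without being an acinar gene. Rbpjl correlated best with Klk1b5, Pdia2 and Klk1 (0.999 each) and was nearest to Cytip, Igf1 and Ptprn2 (0.20 to 0.24). Bhlha15 correlated best with Mx2, Smim38 and Sycn (0.998 to 0.997) and was nearest to Cldn9, Ptprn2 and Smim38 (0.27 to 0.34). Nr0b2 correlated best with Bche, Lpl and Amy1 (0.994 to 0.993) and was nearest to Zfp36, Klb and Lifr (0.31 to 0.32). Gata4 correlated best with Rap1gap, Fam174b and Pde2a (0.992 to 0.991) and was nearest to Upk1b, Tmem252 and Nol3 (0.18 to 0.21).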

How the data were processed

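Total RNA of 12 samples was labelled with biotin and hybridised to Affymetrix mouse arrays. The authors deposited log2 expression values made with RMA, per the labels, rounded to 2 decimals, with no detection calls. The sources used here do not state whether all arrays were normalized together. Of 45101 probe sets, 64 were controls. Gene symbols were those of the platform annotation (1 symbol for 34945 probe sets, several for 932, none for 9160) and sequences from RefSeq (GRCm38.p6). Probe sets above the 30th percentile of their array on at least 4 arrays (33460) were fitted over all 12 arrays with 1 mean per group in limma, version 3.58.1 under R 4.3.3 (9 residual and 4.19 prior degrees of freedom), two-sided, with Benjamini-Hochberg adjustment over all probe sets and calls at an adjusted p under 0.05. The fit was tested on simulated data with independent normal noise, where the groups differed only by changes added to some probe sets. That simulation did not cover differences between groups in percentile or spread, or likeness between arrays. The number of arrays limits the precision.

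For "at least" folds, values under the percentile of their array were raised to it before averaging. The factors and gene lists were chosen with earlier results of these data known. All probe sets of the 6 factors are described. A listed gene was represented by its probe set with the highest mean over the 12 arrays. Of each list other than the cell type markers up to 6 genes are named, those with the largest differences in yDucts against Acini, plus Rbpj and Gata6. Sox9, Nkx6-1, Xbp1, Atf4, Dmbt1, Amy1 and the named markers were chosen after their values were seen. For each factor the 3 genes most like it by correlation and by distance are also named. Alternatives were further scaling (quantile, cyclic loess, median centring), the filter, array weights, an intensity trend with robust prior, the replicate letter as a block, only 2 groups, 1 probe set or the mean of probe sets per gene, and leaving out each array or a pair of Ducts arrays.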

Additional observations from a re-analysis of the deposited data

How the results depend on the processing

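Against Acini, all 12 probe sets kept their sign under every alternative that tested them, and the calls held except for Gata4 1418864_at. The filter at the 50th percentile tested only 8 of the 12, and the settings per gene gave 1 result for each gene. Between yDucts and Ducts, 4 of 12 probe sets were called over all arrays and 2 without Ducts C and D. By the brightest probe set of each gene, 2 of 6 factors were called, and 1 without Ducts C and D, 1 to 2 when 1 array was left out. The number of all probe sets called, 777, was 446 with quantile normalization, 434 without Ducts C and D, 4064 without Ducts A and B, 357 to 1520 when 1 array was left out (lowest without yDucts A, highest without Ducts B), and 11748 with array weights, where 46.6% of the calls were higher against 67.4%. With Ducts replicate C or D left out it was 422 or 424, with yDucts C or D left out 418 or 460. Cyclic loess moved folds against Acini by over 1.5 times for Nr5a2 1420410_at (-7.39) and 1456521_at (-7.52) in Ducts and for Bhlha15 1449233_at in yDucts (-7.25) and Ducts (-7.04), and quantile normalization did so for Nr5a2 1449706_s_at in yDucts (-1.80), without loss of a call; Nr5a2 1420410_at and 1456521_at in yDucts are given above. Array weights also called Nr5a2 1449707_at (0.40, adjusted p = 0.0204). With the mean of the probe sets of a gene, Rbpjl (0.045) and Bhlha15 (0.008) turned their sign without a call, and Nr5a2 gave 2.57 in yDucts against Ducts. The mean also gave smaller differences from Acini: in yDucts -3.71 for Rbpjl, -3.93 for Bhlha15, -1.81 for Nr5a2 and -1.74 for Gata4, and in Ducts -3.75, -3.94, -4.38 and -1.45 for the same genes, all still called. The median of all probe sets in yDucts against Acini was 0.13 as deposited, -0.02 with quantile normalization, 0.00 with cyclic loess and 0.35 with median centring. The cause of these changes was not tested.

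The letters A to D gave no sign of pairing the arrays: 12 same-letter correlations of deviations from the group means ran from -0.30 to 0.11, 1 of them over 0.1. Low correlations do not exclude pairing. Arrays of different letters correlated by up to 0.31 (Ducts B with yDucts A) and down to -0.30 (Ducts D with yDucts C), and a shared batch was not tested. With the letter as a replicate block, 4 of 12 probe sets were called between yDucts and Ducts, 614 of all probe sets, and 12 of 12 in each comparison against Acini.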
